A study of Caenorhabditis elegans with 12 samples.

Results

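Larvae of Caenorhabditis elegans carrying the manf-1 allele tm3603 were compared with wild-type N2 larvae after both had been exposed to tunicamycin. The arrays were chosen by their labels alone: 3 arrays of mutants with tunicamycin and 3 of wild type with tunicamycin, which are 6 of the 12 arrays in the series. The other 6 arrays hold the same genotypes, 3 arrays each, in the vehicle DMSO, and serve here as a second look at the genotype difference without the drug. RNA came from whole synchronized L1 animals, which hatched on plates lacking bacteria and were collected 24 h after plating, so that all groups had been without food. They were then rotated in M9 buffer with the drug or DMSO for 5 h. The labels give the drug's dose as 5, in ug per mL in one field and in ug per uL in another, and the unit could not be settled. The labels describe neither the lesion of tm3603, the only allele used, nor the origin of the replicates, and a p-value here reflects only how these arrays scatter, which may be technical.

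MANF-1 is the worm member of a small family of proteins that reside in the endoplasmic reticulum (ER) and are also secreted, and whose vertebrate members support neurons. Tunicamycin stops the transfer of N-linked sugar chains to proteins entering the ER, and glycoproteins then misfold. Cells answer with the unfolded protein response, in which the sensors IRE-1, PEK-1 and ATF-6 raise chaperones, the machinery that disposes of misfolded proteins, and the capacity of the secretory pathway. The comparison asks how manf-1 mutant larvae differ from wild type while this response is running.

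Each value is the log2 signal of an Affymetrix probe set, so a difference of 1 is a 2-fold change. Of 22548 probe sets other than controls, 14709 were tested with limma, namely those above the 40th percentile on at least 3 of the 12 arrays, and a call is a Benjamini-Hochberg adjusted p under 0.05. Statements about genes use 1 probe set for each of 10844 genes. Control probe sets for bacterial and yeast transcripts, which mark background, centred on 2.23 (median), with their 95th percentile at 3.34. The array annotation assigns no probe set to manf-1, and a check of the genotypes through its own transcript was therefore not analysed here. The markers of body wall muscle (15 of 15), neurons (19 of 19), hypodermis (16 of 17) and intestine (15 of 17) were measured, and 6 of 13 germline and adult markers passed the filter. Array medians lay between 3.96 and 4.05, and Spearman correlations were 0.848 to 0.903 within wild type and 0.898 to 0.918 within mutants under tunicamycin. The array numbered 2 had the lowest signal of 3′ over 5′ probe sets of 5 control transcripts in 4 of 4 groups (range over all arrays 0.69 to 1.85, log2). Under tunicamycin this difference was 1.38 ± 0.28 in wild type and 1.56 ± 0.31 in mutants (SD, n = 3 each; two-sided exact permutation test p = 0.6, where 0.1 is the smallest this design allows).

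Few transcripts separated the genotypes under tunicamycin. By limma, 6 of 14709 probe sets passed (0.0408%): 5 were lower in mutants (0.034%) and 1 was higher (0.0068%). Counted as genes, 3 of 10844 passed, all lower (0.0277%). The 5 lower ones measured T22F3.11 (in both of its probe sets), tag-244, the aldehyde dehydrogenase gene alh-5, and a group of 3 neighbouring genes, F45D11.14, F45D11.15 and F45D11.16, that share a probe set. The higher one was a probe set of rab-6.1, a Rab GTPase of Golgi traffic. At an unadjusted p under 0.05 there were 368 higher (2.5%) and 442 lower probe sets (3%). Over genes, the median difference was 0.04, the median absolute difference 0.3 and the median standard error (SE) 0.41. A difference above 2-fold was seen for 286 genes higher and 305 lower in mutants, most of them without passing. The count of 6 was not stable: without any 1 of the 12 arrays it was between 0 and 3, it was 0 when only the 6 tunicamycin arrays were fitted (741 at an unadjusted p under 0.05), and it was 0 without the 4 arrays numbered 2 (768 unadjusted). Single arrays whose removal gave 0 were mutant tunicamycin array 2, wild-type vehicle array 3 and mutant vehicle array 3. Without wild-type tunicamycin array 2 the 1 call was not among the 6, and some other removals also brought calls from outside the 6.

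**Figure D1:**
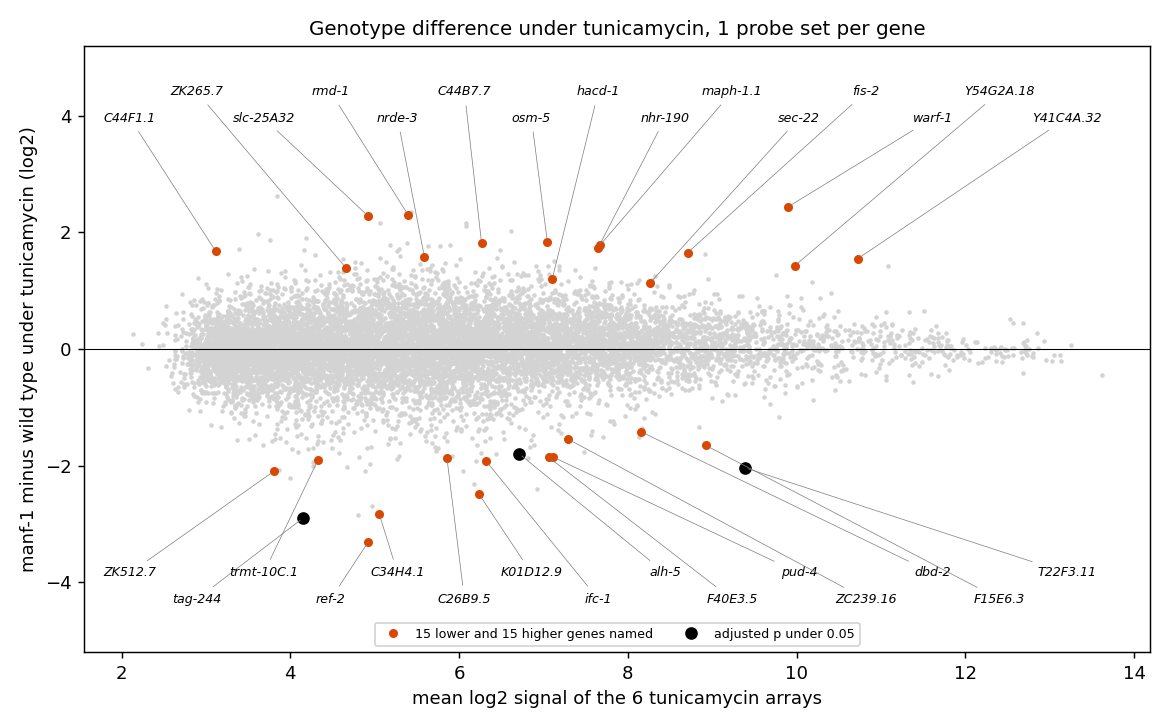
Genotype difference under tunicamycin (manf-1 minus wild type, log2) against the mean log2 signal of the 6 tunicamycin arrays, 1 point per gene. Orange points are the 15 lower and 15 higher genes named in the text, and black points are the 3 genes with an adjusted p under 0.05 (T22F3.11, tag-244 and alh-5), all of which lie below 0.

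T22F3.11 had the smallest p of all probe sets. The probe set with that p read from 9.41 to 10.26 in wild type and 7.67, 7.86 and 7.68 in mutants with tunicamycin. All 3 mutant arrays lay below all 3 wild-type arrays, a difference of -2.19 (SE 0.27, limma adjusted p = 0.0186), or 4.55-fold lower. With vehicle the same probe set read 10.08, 10.28 and 10.30 in wild type and 10.11, 10.98 and 10.44 in mutants, where the genotypes overlap (difference 0.29). The second probe set of T22F3.11, the brighter one used in gene counts, read 9.94, 10.38 and 10.89 against 7.85, 8.26 and 9.0 with tunicamycin, again without overlap (difference -2.03, SE 0.31, adjusted p = 0.0495; 95% interval -2.69 to -1.37). The low level therefore appeared in 1 of the 4 groups, mutants with the drug. There the first probe set was 2.77 lower than in mutants with vehicle (limma adjusted p = 8.84e-05). Here and for the leading genes below, a test of the drug within a genotype reuses tunicamycin arrays that ranked the gene. It is not separate support. The genotype difference of this probe set differed between the treatments by -2.47, which did not pass (interaction adjusted p = 0.0974). The neighbouring gene T22F3.10 had a difference of -0.69 (adjusted p = 0.934).

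The gene alh-5, of the aldehyde dehydrogenase family whose members oxidise reactive aldehydes, read 7.77, 7.73 and 7.32 in wild type and 5.84, 5.76 and 5.85 in mutants with tunicamycin. The mutant arrays were nearly identical and lay wholly below the wild-type arrays, by 1.79 (SE 0.28, adjusted p = 0.0495), which is 3.46-fold. With vehicle the order was the other way about, at 7.72, 7.5 and 8.01 against 8.22, 8.36 and 8.07 (difference 0.47, not past the threshold), and the interaction of -2.27 had an adjusted p of 0.233. Within mutants, alh-5 fell by 2.40 with the drug (adjusted p = 0.000445), while wild type had a change of -0.14. Of the 15 measured genes in its list (propionate, methionine and aldehyde dehydrogenases) alh-5 alone passed, and the list's median was -0.09.

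The probe set shared by F45D11.14, F45D11.15 and F45D11.16, adjacent genes without a common name, read 10.03, 8.64 and 9.09 in wild type and 7.29, 5.92 and 5.74 in mutants with tunicamycin. The groups did not overlap, and the difference was -2.94 (SE 0.45, adjusted p = 0.0495), 7.66-fold. With vehicle the mutant arrays (10.27, 9.41 and 10.78) came close to the wild-type ones (10.78, 10.80 and 10.99), with a difference of -0.71. Which of the 3 genes gives the signal cannot be told, and the set was named after its values were seen, as were the lead T22F3.11 probe set and the rab-6.1 probe set.

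tag-244 differed from these genes in being low in mutants with and without the drug. It read 6.48, 5.67 and 4.65 in wild type and 2.37, 2.93 and 2.80 in mutants with tunicamycin, and 7.26, 6.73 and 6.42 against 2.52, 2.99 and 3.12 with vehicle. All 6 mutant arrays were below the 95th percentile of the background controls, so the signal was at least 4.79-fold lower with tunicamycin (limma difference -2.90, adjusted p = 0.0495) and at least 11.05-fold lower with vehicle (difference -3.93, adjusted p = 0.00628). It was the only probe set of 14709 that passed with vehicle (0.0068%), where 445 were higher (3.03%) and 324 lower (2.2%) at an unadjusted p under 0.05. This call was lost without wild-type vehicle array 1 or mutant vehicle array 2. C34H4.1, which has 1 annotated protein-coding gene between it and tag-244, showed the same arrangement. It read 6.62, 7.60 and 5.18 in wild type and 3.81, 3.61 and 3.51 in mutants with tunicamycin, and 6.07, 5.69 and 5.50 against 3.49, 3.63 and 3.69 with vehicle. Mutant and wild-type arrays overlapped in neither treatment (differences -2.83, adjusted p = 0.0699, and -2.15). The collagen gene col-107, the next annotated gene on the other side of tag-244, had a difference of -0.22 with tunicamycin and overlapping groups.

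The rab-6.1 probe set that passed in the upward direction read 3.94, 3.96 and 4.1 in wild type and 6.01, 6.11 and 6.08 in mutants with tunicamycin. The mutant values were 2.06 higher (SE 0.33, adjusted p = 0.0495), or 4.18-fold. This upward call was lost when any 1 of the 12 arrays was left out. With vehicle the genotypes stood the other way round, at 5.70, 6.41 and 5.84 in wild type and 4.44, 4.44 and 4.07 in mutants. The interaction of 3.73 passed (adjusted p = 0.0177), the only one of 14709 to do so (0.0068%), with 308 above 0 (2.09%) and 371 below (2.52%) at an unadjusted p under 0.05. The other probe sets of rab-6.1 did not show this: their differences with tunicamycin were 0.30 and 0.00, and the one used for the gene was the latter. The probe sets of rab-6.1 thus disagree, and the gene's level was not settled by them. No interaction passed after removal of any of 8 of the 12 arrays, each left out in turn. Without mutant vehicle array 3 the 1 interaction that passed was below 0, and so was not that of this probe set.

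**Figure D2:**
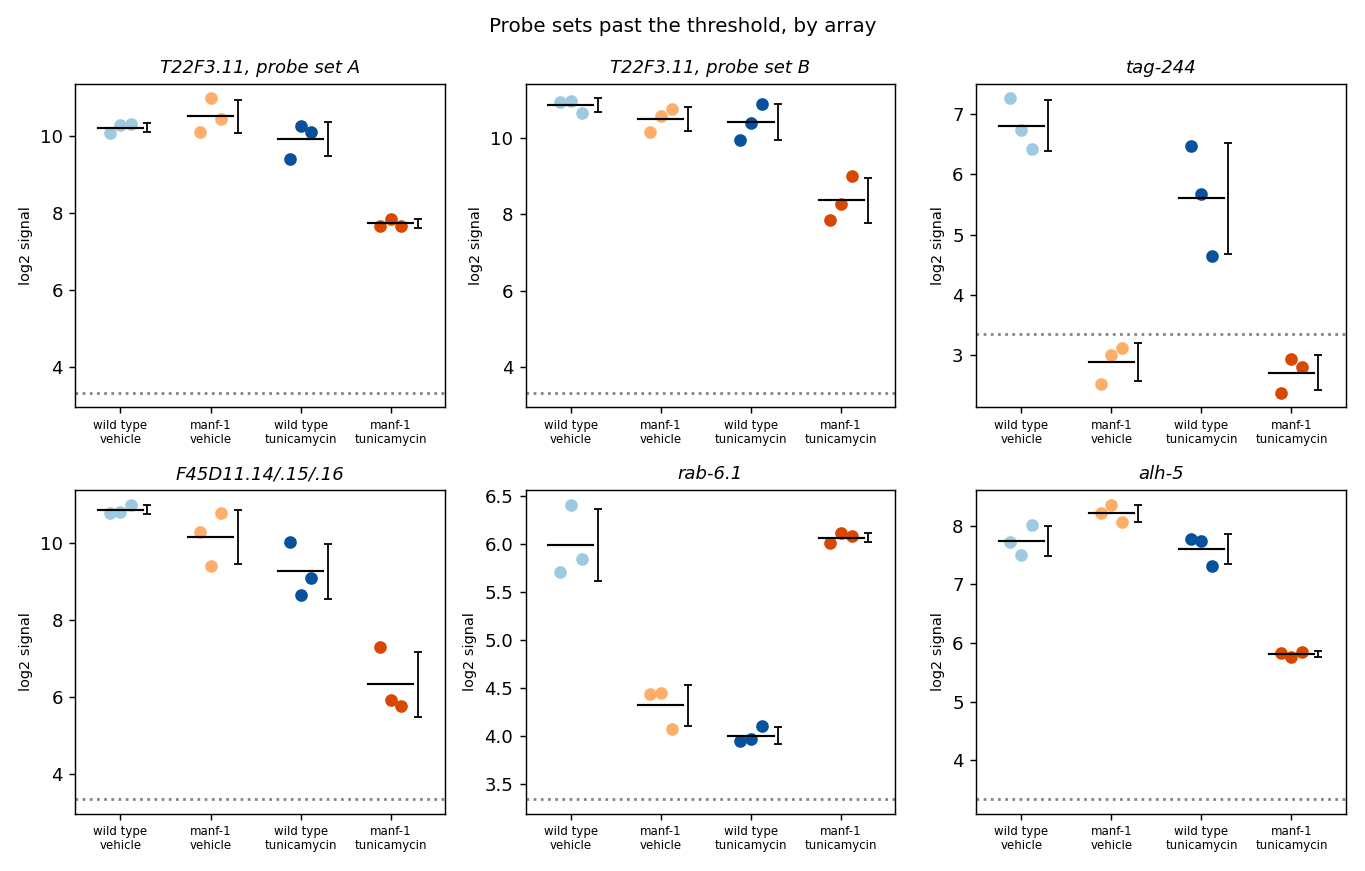
Log2 signals of the 6 probe sets past the threshold in the tunicamycin comparison, by group. Points are arrays (n = 3), lines are means, bars are ± SD beside them, and the dotted line is the background controls' 95th percentile of 3.34. T22F3.11 (A the set with the smallest p, B the second), alh-5 and the F45D11 set are low in mutants with tunicamycin, tag-244 in mutants under both treatments, and the rab-6.1 set changes order between treatments.

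Beyond these calls, genes were ranked by p in each direction and the 15 leading ones each way are described as values. On the lower side the 12 that did not pass had adjusted p-values from 0.0596 to 0.339. The lowest was ref-2, a Zic-type zinc-finger transcription factor gene, which read 6.04, 6.61 and 7.08 in wild type and 3.17, 3.37 and 3.26 in mutants with tunicamycin. Mutant arrays lay at background or just above it and wild-type arrays well above, so the signal was at least 9.44-fold lower (adjusted p = 0.0596). With vehicle ref-2 was scattered in wild type, at 3.37, 5.86 and 5.22, and overlapped the mutant values of 4.96, 3.79 and 4.21.

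ifc-1, which encodes an intermediate filament protein of the intestinal cell, read 7.08, 7.61 and 7.18 in wild type and 6.06, 4.96 and 5.06 in mutants (difference -1.93, adjusted p = 0.0732). It was lower with tunicamycin than with vehicle in both genotypes, at -1.51 in wild type (adjusted p = 0.0856) and -3.04 in mutants (adjusted p = 0.000237). Its relative ifd-2 had values of 7.30, 6.52 and 8.17 against 5.93, 3.68 and 5.44 (difference -2.32, adjusted p = 0.447), again with no overlap.

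The pud genes, named for proteins whose amount rises in daf-2 mutants, lie close to each other and had lower mutant means in 4 of 4 probe sets. pud-4 read 8.38, 7.44 and 8.28 in wild type and 6.63, 6.23 and 5.70 in mutants (difference -1.85, adjusted p = 0.147). The probe set shared by pud-2.1 and pud-2.2 read 8.38, 7.44 and 8.85 against 6.22, 5.50 and 6.31 (difference -2.21, adjusted p = 0.0596), and that shared by pud-1.1 and pud-1.2 read 8.55, 7.14 and 8.5 against 6.55, 6.96 and 5.81 (difference -1.62, adjusted p = 0.353). These 3 probe sets had no overlap between genotypes (5.34% of all genes were lower without overlap), whereas pud-3 (difference -1.22) overlapped. With vehicle the 4 differences were 0.26, 0.10, 0.06 and 0.25. The pud copies are close relatives and share probe sets, so they are not separate measurements.

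Among the other lower genes, trmt-10C.1, related to a mitochondrial tRNA methyltransferase subunit, was the 1 member of the 15 whose increase with the drug in wild type passed the threshold (limma adjusted p = 0.012). That test reuses the wild-type tunicamycin arrays by which the gene was ranked, and is not separate support. With tunicamycin trmt-10C.1 read 5.27, 5.02 and 5.55 in wild type and 3.22, 2.81 and 4.07 in mutants (genotype difference -1.91, adjusted p = 0.147). With vehicle the mean of each genotype was below the background limit of 3.34. F15E6.3 was at -1.65 and its second probe set at -1.62. The ZK512.7 probe set used for the gene had a mutant mean below the background limit and was at least 2.85-fold lower there. Its second probe set had a mutant mean of 3.59, above the limit, and a smaller difference of -1.02 (2.03-fold). The rest were K01D12.9 at -2.49, C26B9.5 at -1.87, F40E3.5 at -1.85, ZC239.16 at -1.54 and dbd-2 at -1.42. K01D12.9 was also low in mutants with vehicle, at -1.90.

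On the higher side none of the 15 leading genes passed, and their adjusted p-values ran from 0.0596 to 0.589. The lead was warf-1, a gene of the ADP-ribosylation factor family of vesicle-traffic GTPases, with 8.98, 7.99 and 9.07 in wild type and 11.65, 10.38 and 11.33 in mutants. The difference was 2.44 (SE 0.41, adjusted p = 0.0596; 95% interval 1.56 to 3.32), and a probe set that it shares with arl-7 gave 1.77. With vehicle the genotypes overlapped, at 5.86, 5.96 and 5.05 against 6.19, 5.83 and 5.55. The drug raised warf-1 in both genotypes, by 3.06 in wild type (adjusted p = 0.00236) and 5.27 in mutants (adjusted p = 3.08e-05), and the interaction of 2.21 did not pass.

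Y41C4A.32 had a like pattern. It read 10.16, 9.84 and 9.83 in wild type and 11.73, 11.21 and 11.54 in mutants with tunicamycin, and 6.80, 6.79 and 6.76 against 5.55, 6.29 and 5.18 with vehicle. Mutants were therefore above wild type with the drug (1.55, adjusted p = 0.147) and below it without (-1.11), and the interaction of 2.66 had an adjusted p of 0.0974. Y54G2A.18 also rose with the drug in both genotypes and read 9.51, 9.29 and 8.99 in wild type and 10.44, 10.79 and 10.85 in mutants (difference 1.43, adjusted p = 0.491; second probe set 0.87). sec-22, a SNARE of transport between ER and Golgi, had tight groups, at 7.83, 7.61 and 7.65 against 8.75, 8.91 and 8.85 (difference 1.14, SE 0.28, adjusted p = 0.458).

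The remaining higher genes covered other functions. They were rmd-1, a regulator of microtubule dynamics, at 2.30, the mitochondrial carrier gene slc-25A32 at 2.29, osm-5, a subunit of the transport particles inside cilia, at 1.83 (second probe set 0.37), C44B7.7 at 1.82, maph-1.1 at 1.79 and the nuclear hormone receptor gene nhr-190 at 1.74. C44F1.1 was below the background limit in wild type and at least 1.53-fold higher in mutants. It was followed by fis-2, a mitochondrial fission factor, at 1.66, nrde-3, a nuclear Argonaute of RNA interference, at 1.58, ZK265.7 at 1.40 and hacd-1, a hydroxyacyl-CoA dehydrogenase of fat breakdown, at 1.21. Mutants had more hacd-1 signal than wild type with vehicle as well, by 1.17 (8.52, 8.60 and 8.67 against 7.49, 6.90 and 7.90).

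The leading genes were set against the difference with vehicle. The ranking took no mean from the vehicle arrays, but they entered the estimate of the spread. Of the 15 lower genes, 10 were also below 0 with vehicle, with a median of -0.34, and of the 15 higher genes 9 were also above 0, with a median of 0.23. Over all 10844 genes the differences in the 2 treatments had the same sign for 52.5%, with a Pearson correlation of 0.08 and a Spearman correlation of 0.07 across genes, which are not independent replicates. The drug's effect in each genotype shares its 3 tunicamycin arrays with the ranking. Low mutant and high wild-type arrays favoured a place among the lower genes, and the reverse a place among the higher ones. The counts that follow were therefore shaped in advance, unlike the shares of all genes, and are given side by side only. In mutants 8 of the 15 lower genes passed the threshold as lower with the drug (0.443% of all genes did), and in wild type 0 (0.0184%). Of the 15 higher genes 6 passed as higher with the drug in mutants (0.692%) and 3 in wild type (0.378%).

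**Figure D3:**
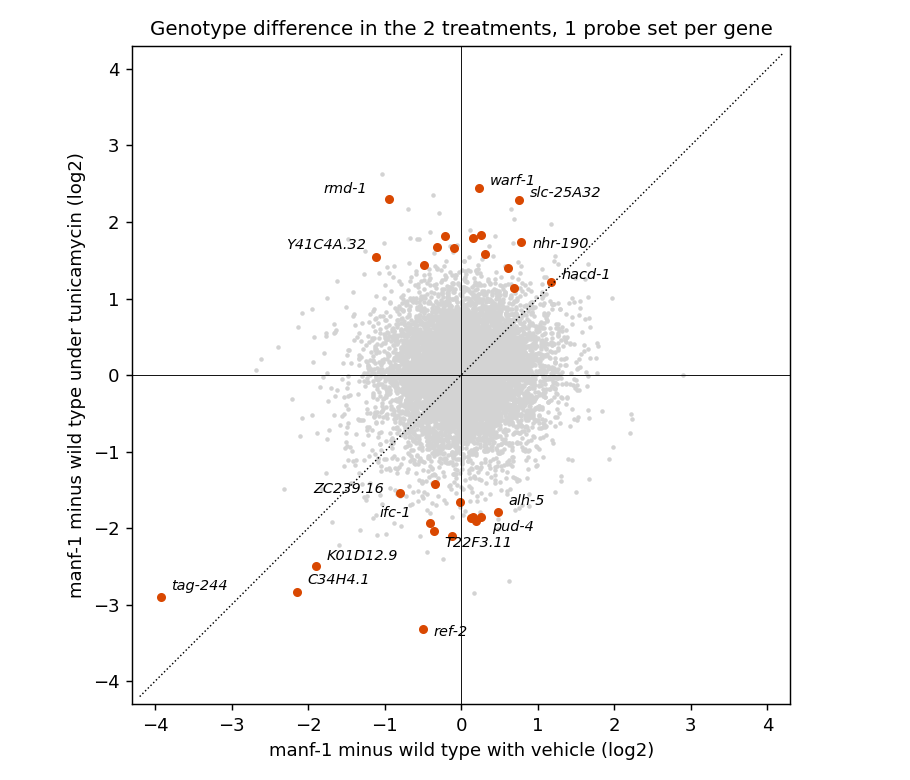
Genotype difference (manf-1 minus wild type, log2) under tunicamycin against that with vehicle, 1 point per gene, with the 30 leading genes of the tunicamycin comparison in orange and a dotted line where both are equal. tag-244, C34H4.1 and K01D12.9 are low under both treatments, whereas T22F3.11, alh-5, pud-4 and warf-1 lie between -0.36 (T22F3.11) and 0.47 (alh-5) on the vehicle axis.

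At the best-known targets of the ER stress response the genotype differences were small beside the drug's own effect, and 0 passed. hsp-4, whose product is a BiP-type chaperone of the ER lumen, read 11.53, 11.62 and 11.22 in wild type and 11.97, 11.73 and 11.88 in mutants with tunicamycin. The groups did not overlap, but the difference of 0.40 (SE 0.30, adjusted p = 0.935) had a 95% interval from -0.24 to 1.05, which holds anything from 0.846-fold to 2.07-fold. The drug's effect on hsp-4 was 3.22 in wild type and 3.57 in mutants. Its close relative hsp-3 read 11.63, 11.49 and 11.16 against 11.82, 11.55 and 11.88 and overlapped (difference 0.33, interval -0.08 to 0.73). ckb-2, a choline kinase gene strongly raised by the drug in both genotypes (4.82 in wild type and 3.89 in mutants), read 10.65, 10.84 and 10.35 against 10.95, 10.46 and 10.84 (difference 0.13, interval -0.59 to 0.86).

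Of the sensors and their transcription factors, xbp-1, whose mRNA is spliced by IRE-1, had a difference of 0.27 (interval -0.24 to 0.78) and 0.22 in its second probe set. ire-1 was at 0.45 (second probe set 0.54), atf-6 at 0.50 (second 0.64) and the kinase gene pek-1 at -0.44 (second -0.61), and all 4 had overlapping groups in the probe set used for the gene, while the second atf-6 probe set did not overlap (3.51, 4.14 and 4.27 in wild type, with each mutant array at 4.37 or above). The intervals of ire-1 (-0.63 to 1.53), atf-6 (-1.0 to 2.01) and pek-1 (-1.38 to 0.49) were wide. Of the 10 sensors and regulators measured, 8 were above 0 and 2 below, with a median of 0.23, and 0 had non-overlapping groups. With vehicle their median was larger, at 0.35. Signals of whole probe sets do not separate spliced from unspliced xbp-1.

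ER chaperones and folding enzymes had 25 measured genes, of which 0 passed. Of these, 21 were above 0 and 4 below, with a median of 0.33 beside 0.04 for all genes, and 3 had groups that did not overlap, all higher in mutants (5.4% of all genes were higher without overlap and 5.34% lower). pdi-2, a protein disulfide isomerase, read 11.39, 10.92 and 10.74 in wild type and 11.70, 11.45 and 11.78 in mutants (difference 0.63, adjusted p = 0.878), while its second probe set was at 0.08. C14B9.2, of the same family, was at 0.52 (second probe set 0.46) and pdi-1 at 0.73 (second 0.50). With vehicle the list's median was 0.19. Mean signals of the list were 9.19, 8.79 and 8.59 in the wild-type arrays and 9.37, 8.88 and 9.2 in the mutant arrays, and the groups overlapped.

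Genes of ER-associated degradation, which sends misfolded proteins to the proteasome, had a median of 0.50 over 15 measured, with 11 above 0, 6 without overlap (all higher in mutants, as were 5.4% of all genes) and 0 past the threshold. sel-11, which encodes the worm HRD1-type ubiquitin ligase of this pathway, read 9.56, 8.82 and 8.91 in wild type and 10.02, 9.74 and 10.17 in mutants (difference 0.88, adjusted p = 0.826; second probe set 0.31). The derlin gene cup-2 read 7.85, 7.45 and 6.94 against 8.16, 8.0 and 7.99 (0.64), and der-2, another derlin gene, was at 0.83 (second probe set 0.64). cdc-48.2, a segregase subunit, was at 0.76. The mean of the list was 6.73, 6.87 and 6.54 in wild type and 7.0, 7.0 and 7.26 in mutants, the mutant arrays being higher without overlap. With vehicle the median was 0.16.

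The steps before and after folding gave similar small offsets. ER translocation and COPII export, by which proteins enter and leave the ER, had 20 measured genes with a median of 0.40, 16 above 0 and 0 past the threshold. Without overlap 5 were higher and 1 lower, beside 5.4% and 5.34% of all genes. With vehicle the median was -0.10. The translocon-associated gene trap-2 read 7.23, 7.10 and 7.46 in wild type and 8.13, 8.66 and 8.11 in mutants (1.04, adjusted p = 0.589), but its dimmer second probe set was at -0.16. trap-3 was at 0.91 (second probe set 0.81), tfg-1, an organiser of ER exit sites, at 1.13, and sec-61.B, a translocon subunit, at 0.66. List means were 8.24, 8.02 and 7.94 in wild type and 8.40, 8.49 and 8.42 in mutants, without overlap. Such separation of list means was not particular to the secretory pathway. It was also seen for the cytosolic heat shock response (8.06, 7.88 and 8.21 against 8.34, 8.28 and 8.27). Intestine markers separated in the other direction (7.38, 7.15 and 7.1 against 6.88, 7.01 and 7.03), while chaperones and the sensors and regulators overlapped.

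The 15 measured genes of the COPI coat and Golgi had a median of 0.25 (0.11 with vehicle), 0 below 0 and 0 past the threshold. Higher without overlap were 2, warf-1 and rab-6.2 (0.98, second probe set 0.13), beside 5.4% of all genes. Without the 4 arrays numbered 2, 4 of the 15 were below 0. The list of genes of N-glycosylation, which tunicamycin blocks, and of hexosamine synthesis had a median of 0.21 over 17 measured (0.19 with vehicle), 12 above 0 and 0 past the threshold. Its leading members were algn-3, a mannosyltransferase gene, with 5.93, 5.26 and 5.69 in wild type and 6.53, 7.06 and 6.84 in mutants (1.18), and gfat-1, whose enzyme begins hexosamine synthesis, with 8.25, 7.97 and 6.88 against 8.92, 9.09 and 8.85 (1.25, adjusted p = 0.878). dpy-18, a collagen prolyl hydroxylase subunit gene of the ER that the drug raised in both genotypes, read 10.15, 9.26 and 9.40 against 11.05, 10.40 and 10.82 (1.15, adjusted p = 0.769; other probe sets 0.78 and 1.11). Over all alternatives of processing, medians stayed between 0.20 and 0.48 for chaperones, 0.33 and 0.65 for degradation, 0.31 and 0.55 for export, and -0.03 and 0.41 for N-glycosylation.

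**Figure D4:**
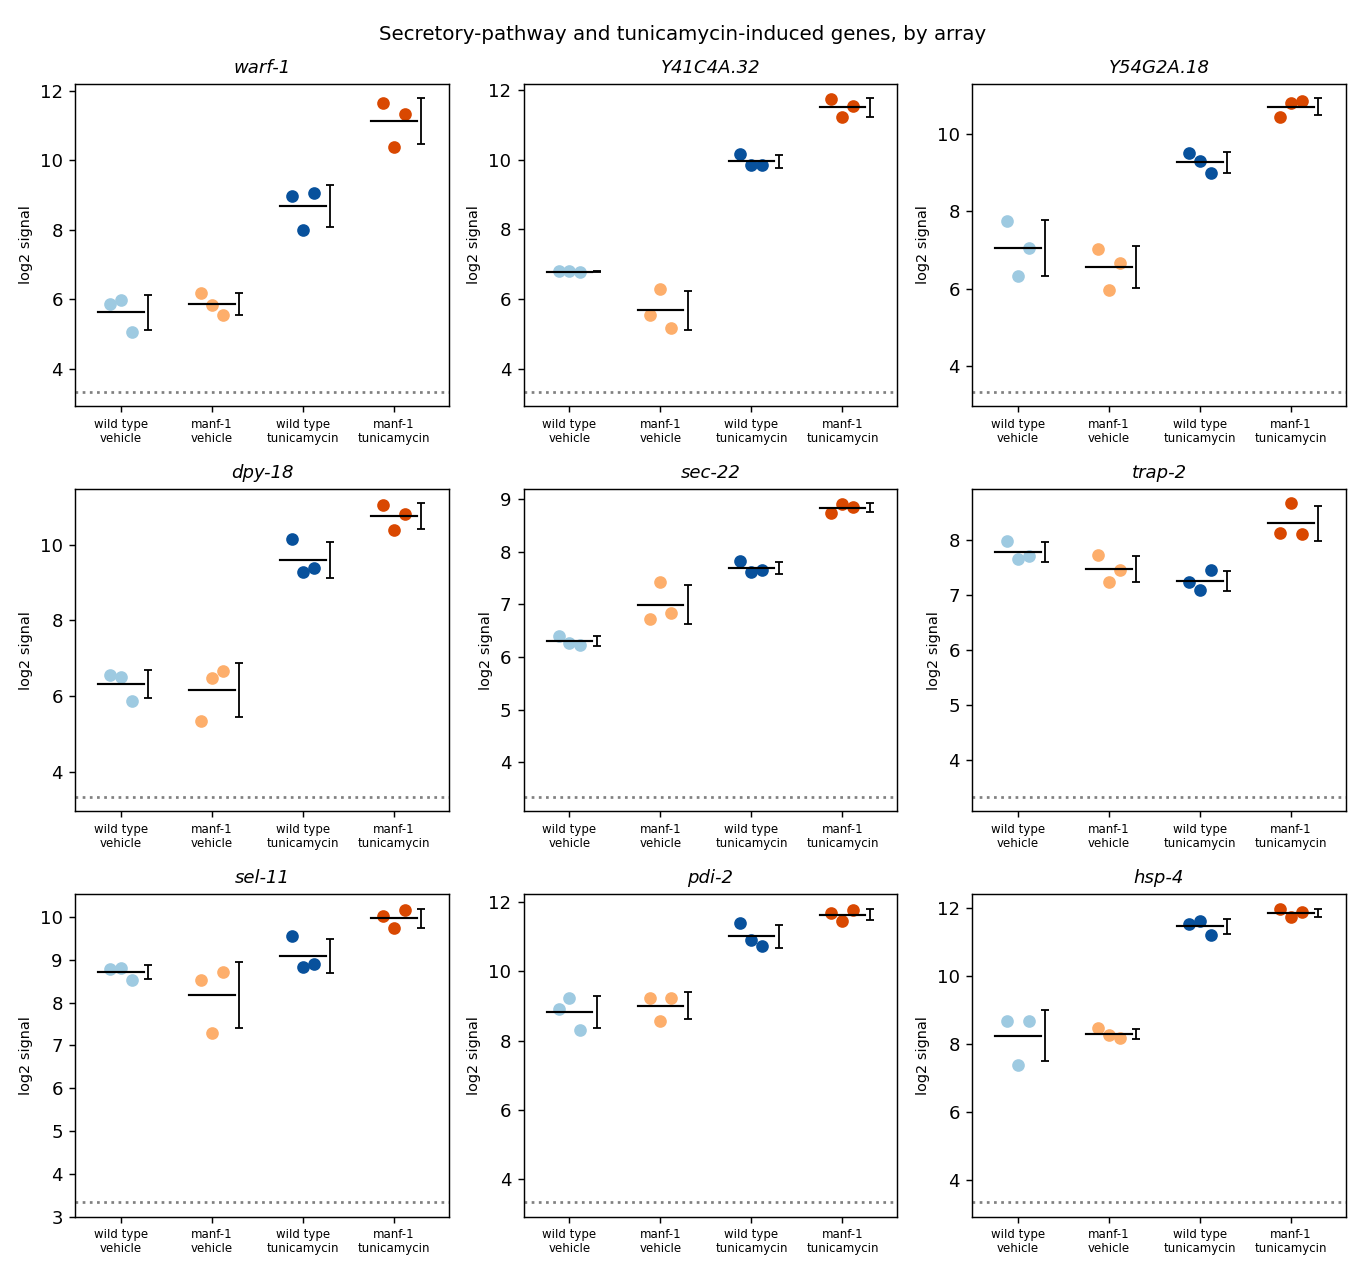
Log2 signals of 9 secretory-pathway and drug-raised genes by group; points are arrays (n = 3), lines means, bars ± SD, and the dotted line is the background controls' 95th percentile of 3.34. All 9 have mutant means above wild-type means with tunicamycin, by 0.40 for hsp-4 to 2.44 for warf-1, and none of the 9 passed the threshold.

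Cuticle and epidermal genes lay mostly on the lower side. Of 131 measured cuticle collagens, the structural proteins of the worm's exoskeleton, 101 were below 0 and 30 above, with a median of -0.31 and 0 past the threshold. Groups did not overlap for 25 lower and 1 higher, beside 5.34% and 5.4% of all genes, and at an unadjusted p under 0.05 there were 19 lower and 1 higher (3.2% and 2.6% of all genes). List means were 6.26, 6.12 and 6.07 in wild type and 5.88, 5.83 and 5.81 in mutants, without overlap. With vehicle the median was -0.14.

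Single collagens showed the range. col-165 read 7.61, 7.39 and 8.26 in wild type and 6.04, 6.30 and 5.32 in mutants (-1.87, adjusted p = 0.462), and was also at -1.15 with vehicle. col-80 read 6.97, 6.81 and 7.31 against 5.86, 4.85 and 5.44 (-1.65), and dpy-8, whose loss shortens the body, 7.66, 6.97 and 6.83 against 4.18, 6.45 and 5.09 (-1.92). The bright col-125 had a small and regular difference, at 12.07, 11.95 and 11.71 against 11.50, 11.42 and 11.42 (-0.47, SE 0.14). Collagens are similar in sequence, and probe sets may read more than 1 of them.

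Epidermal antimicrobial peptides of the nlp and cnc families had 14 measured genes with a median of -0.62, 13 below 0, 9 lower without overlap (5.34% of all genes) and 0 past the threshold, beside a median of -0.16 with vehicle. At an unadjusted p under 0.05 there were 7 lower and 1 higher (3.2% and 2.6% of all genes). The higher one, at 1.57, was the largest difference in the list, with overlapping groups. nlp-33 read 9.92, 9.89 and 10.09 in wild type and 9.38, 9.17 and 9.31 in mutants (-0.68, adjusted p = 0.769), nlp-27 11.08, 11.41 and 11.50 against 10.98, 10.59 and 10.84 (-0.53), and nlp-28 9.55, 9.87 and 10.66 against 9.41, 9.08 and 9.11 (-0.83). nlp-25 was at -1.1 with the drug and -1.01 with vehicle. Markers of the hypodermis, the tissue that makes cuticle and these peptides, also lay mostly below 0, with a median of -0.34 over 16 and 10 below 0, and their median with vehicle was -0.35. Their list means overlapped between genotypes, at 7.34, 7.01 and 7.06 against 6.82, 7.05 and 6.76. Single members went both ways, with wrt-10 at -1.76 and dpy-13 at -0.46. Of the 16, 6 were above 0, the highest being grl-7 at 1.23 (second probe set 0.05). In RNA of whole animals fewer cells of a tissue and less RNA per cell cannot be told apart, and the part of hypodermis in these values was not tested.

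Other tissue lists had lower medians too. Intestine markers were at -0.24 (10 of 15 below 0 and 5 above, up to 0.49). The saposin-like gene spp-1 read 9.90, 10.03 and 10.57 in wild type and 8.78, 9.36 and 9.52 in mutants (-0.95, adjusted p = 0.528), and the esterase gene ges-1 was at -0.99. The list of intermediate filaments and apical intestine, which shares members with the intestine markers, was at -0.35 (11 of 15 below 0). Lower without overlap were 3 (5.34% of all genes were): ifc-1, ifd-2 and ifb-2 (-0.42). Pharynx markers had the lowest median of the lists with at least 10 measured genes, -0.67 with 12 of 13 below 0, but it ranged from -1.17 to -0.25 over the alternatives. Their means followed array numbers as much as genotype, at 6.42, 6.36 and 7.53 in wild type and 5.66, 5.59 and 6.89 in mutants, where the arrays numbered 3 were highest in both. The leading member abu-14 was at -1.83 (second probe set -1.78) and tnt-4 at -1.17. Body wall muscle (-0.03), neurons (0.01) and dopaminergic neurons (0.08, 7 measured) had medians near 0.

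**Figure D5:**
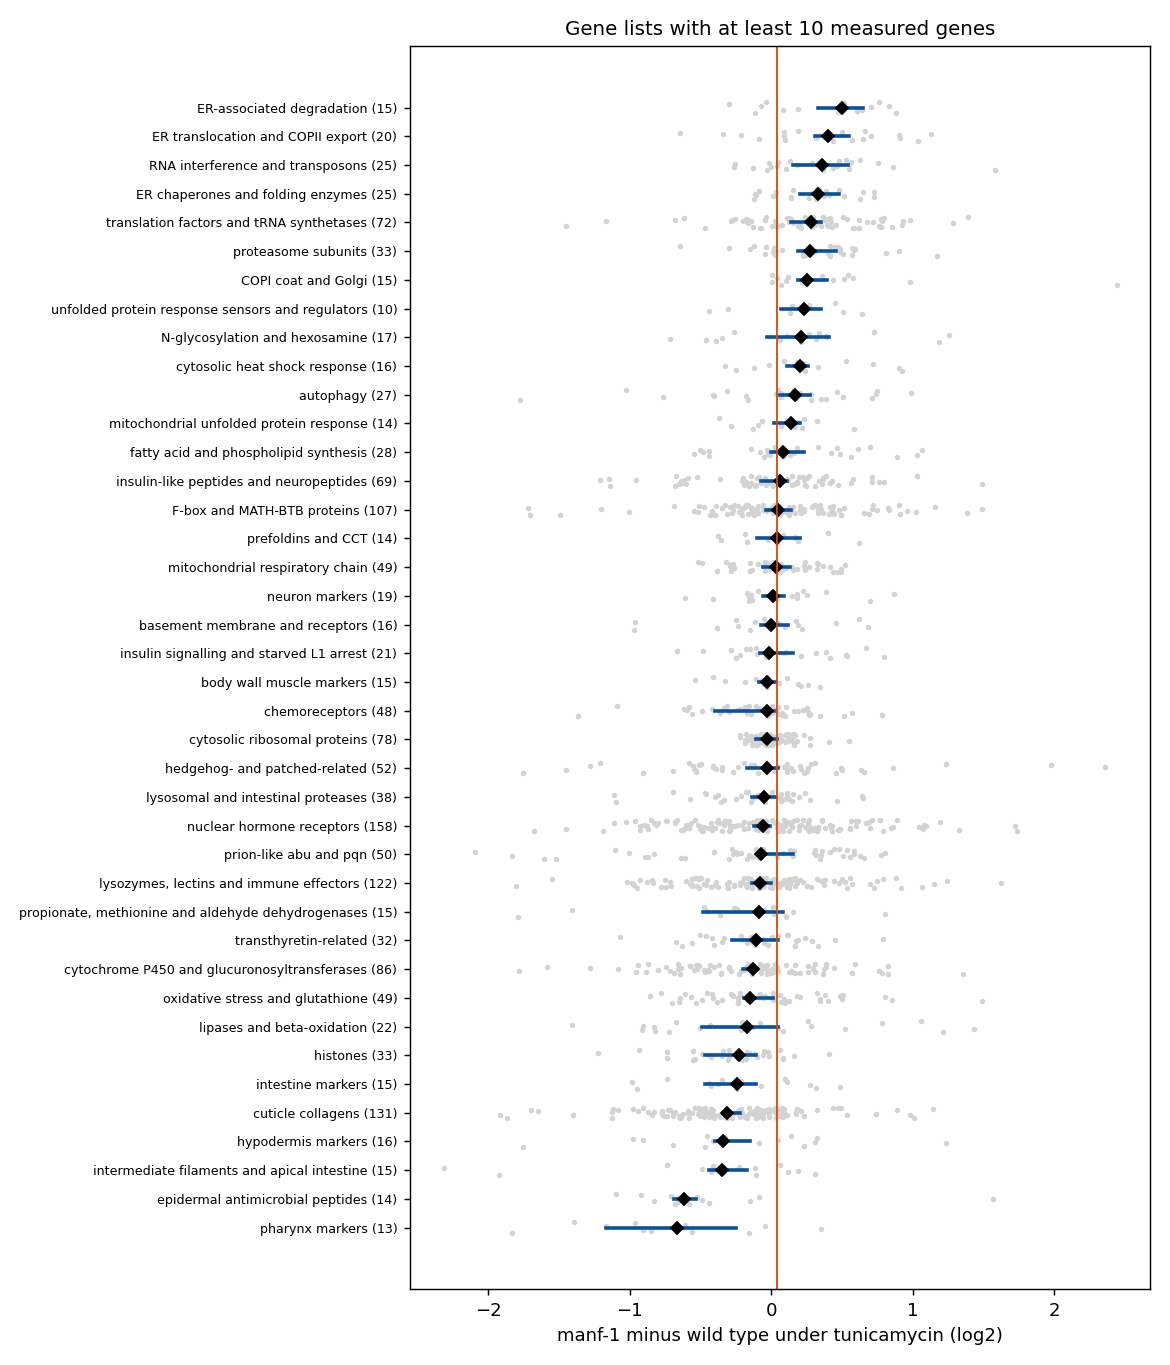
Genotype difference under tunicamycin (log2) for the 40 lists with at least 10 measured genes, whose number stands in brackets. Grey points are genes, diamonds medians, blue bars the range of the median over alternatives of processing, and the orange line is the median of all genes, 0.04. Secretory-pathway lists have medians between 0.21 and 0.50 and epidermal, pharyngeal and collagen lists between -0.67 and -0.31, with alh-5 the only gene in any of these lists past the threshold.

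Lists outside the secretory pathway also had medians on either side of 0. Translation factors and tRNA synthetases had 53 of 72 genes above 0 (median 0.28), proteasome subunits 27 of 33 (0.27), and genes of RNA interference 20 of 25 (0.36), of which nrde-3 led. These medians were as large as those of several secretory-pathway lists. Histones had 28 of 33 below 0 (-0.23), with his-61 at 10.87, 10.72 and 11.12 in wild type and 10.13, 10.27 and 10.64 in mutants (-0.56, adjusted p = 0.769). Cytochrome P450 and glucuronosyltransferase genes were at -0.13 (55 of 86 below 0), lysozymes, lectins and other immune effectors at -0.08 (70 below 0 and 52 above), and ribosomal proteins at -0.03 (78 measured). The cytosolic heat shock response (0.20, 16 measured) and the mitochondrial unfolded protein response (0.14, 14 measured) had 0 genes past the threshold. Lipases and beta-oxidation genes were split, with 13 of 22 below 0: acs-2, an acyl-CoA synthetase gene, was at 1.43 (second probe set 1.17) and acdh-1, a short-chain acyl-CoA dehydrogenase gene, at -1.41.

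The genes around manf-1 were examined as well, since strains can carry linked differences. Of the 20 nearest annotated protein-coding genes on each side, 18 were measured, with differences from -0.86 to 1.43, a median of 0.08, 11 above 0 and 7 below. Of these 18, 0 passed the threshold by limma and 2 had an unadjusted p under 0.05, both higher (2.6% of all genes were higher at that p and 3.2% lower). They were Y54G2A.18, 6 genes away and described above, and samt-1, the adjacent gene. samt-1 was at 0.72 with tunicamycin and below the background limit in mutants with vehicle. Of the measured neighbours samt-1 was named after its values were seen.

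The test of whether tunicamycin changed the genotype difference gave 1 call among 14709 probe sets, the rab-6.1 probe set described above, and 0 among the 10844 genes (at an unadjusted p under 0.05, 230 were above 0, 2.12%, and 281 below, 2.59%). The leading genes were Y41C4A.32, rmd-1 (interaction 3.25, adjusted p = 0.494) nhr-183 (2.50), K07H8.9 and warf-1 upward. Downward they were alh-5, F21G4.5 (-2.76, adjusted p = 0.235), K09E3.4, T07F12.4 (-2.97) and pud-4 (-2.11, adjusted p = 0.846). K07H8.9 and K09E3.4 had 1 genotype below the background limit in each treatment, so that no size is given for them. F21G4.5 illustrates the pattern, reading 5.68, 6.2 and 5.96 in wild type and 4.53, 4.48 and 4.23 in mutants with tunicamycin, but 3.99, 3.75 and 4.75 against 5.15, 5.45 and 5.59 with vehicle. The order of the genotypes thus reversed without overlap in either treatment, yet the adjusted p missed the threshold. An effect that passed with the drug alone, as for T22F3.11 and alh-5, was therefore not shown to differ from that with vehicle.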

How the data were processed

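Whole L1 larvae were assayed on 1-colour Affymetrix arrays from 6 ug of total RNA, per the labels' protocols. The authors deposited log2 signals of 22625 probe sets. The log2 scale was read from the values, and MAS5 appears in the submitters' processing notes, with neither its role nor its version. A genome build is not given in the sources used here, so no coordinates are printed. After removal of 77 controls, 14709 probe sets were kept, of which 13689 name 1 gene, 481 several and 539 none; 13649 matched RefSeq (WBcel235). Genes with several kept probe sets (2332) were represented by the one brightest on average. Group means over 12 arrays were fitted with limma 3.58.1 in R 4.3.3 (eBayes with trend, two-sided, 8 residual and 5.93 prior degrees of freedom); figures used Python 3.11.15. Whether the signals were scaled between arrays is not stated; with medians this close, a shift common to most genes would not show. Precision is limited by 3 arrays in each group.

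The arrays, the 46 gene lists and the naming rule were chosen with earlier results of these data known, so lists are described without tests. The rule named up to 15 genes in each direction past the threshold, filled up by the smallest p-values, up to 4 members per list by p, the 5 smallest interaction p-values in each direction, 15 genes that earlier results had named, and any neighbour of manf-1 that passed. On simulated data with 14709 probe sets this contrast recovered 12% of 50 probe sets changed 2-fold, 66% at 4-fold, 92% at 8-fold and 98% at 16-fold, with 6 false among 140 calls. The simulation changed 50 probe sets at each fold together and drew independent normal noise. Its many calls make the adjusted threshold more lenient than in the data, where 6 probe sets passed. Recovery in the data can therefore be lower than these shares. A fold against signals below background is a bound, taken against the controls' 95th percentile, 3.34. Alternatives were quantile normalization, centring, other filters (none, or the 60th percentile), an offset of 5.08 before log2, other variance settings, array weights, the replicate number as a block, only the 6 arrays compared, and leaving out arrays.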

Additional observations from a re-analysis of the deposited data

Results flagged for a closer look

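The rab-6.1 probe set with 3.94, 3.96 and 4.1 in wild type and 6.01, 6.11 and 6.08 in mutants under tunicamycin had the genotypes in the opposite order with vehicle, and the test of the difference between the treatments gave 3.73 (log2; SE 0.46, limma adjusted p = 0.0177). This was the only interaction among 14709 probe sets that passed. The other rab-6.1 probe sets had genotype differences under tunicamycin of 0.30 and 0.00 and interactions of 0.15 and -0.33.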

How the results depend on the processing

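Against 6 probe sets past the threshold under tunicamycin, the limma count was 11 with a filter at the 60th percentile (2 higher and 9 lower, including all 6), 11 with array weights (sharing 5), 3 without moderation, 1 with no filter, 1 with an offset before log2, 1 with robust eBayes, 0 without the trend (804 at an unadjusted p under 0.05), 0 with only the 6 arrays compared (741) and 0 without the 4 arrays numbered 2 (768). Centring on array medians gave the same 6. Quantile normalization gave 5, all among the 6, with 0 higher. Leaving out each array in turn gave 0 to 3, with 0 without mutant tunicamycin array 2, wild-type vehicle array 3 or mutant vehicle array 3. The 1 call without wild-type tunicamycin array 2 was not among the 6. An unadjusted p with a 2-fold difference gave 467, 493 with vehicle and 610 for the interaction. With vehicle the 1 call became 0 without moderation (728 unadjusted) and 0 without the arrays numbered 2 (641), and 0 to 2 without single arrays. The interaction's 1 call became 2 with array weights, 0 without the arrays numbered 2 (614), and 0 to 2 without single arrays. Causes of these shifts were not tested.

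The replicate numbers were not taken as pairs: deviations of same-numbered arrays correlated at 0.18, 0.09 and 0.16 with tunicamycin and 0.04, 0.12 and 0.04 with vehicle, all weakly positive but not all above 0.1. With the number as a replicate block, 3 probe sets passed under tunicamycin (all among the 6), 1 with vehicle and 2 for the interaction. Of 24 alternatives, the leading T22F3.11 probe set passed in 13, the F45D11 set in 7, alh-5, tag-244 and the second T22F3.11 set in 5 each and the rab-6.1 set in 4; each kept its direction in all 24. In the simulation most differences of 2-fold were missed and some of 4-fold, and more may be missed in the data. Dim probe sets near background give bounds only.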
